A study of Mus musculus with 6 samples.

Results

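The mRNAs described here are 87 transcripts of zinc finger genes that mouse symbols name Zfp and a number, out of 371 such genes and 53700 genes counted. Members were chosen by their level in wild-type oocytes: a mean of at least 20 CPM (a gene's counts scaled to a library total of 1000000 gene counts) in the 3 wild-type libraries. Zfp36, Zfp57 and Zfp750 were left out. Of the other 284 Zfp genes, all below that level, 12 had no count in any library. Each library held poly(A) RNA of 10 pooled oocytes at the germinal vesicle (GV) stage, when the cell is fully grown and still in meiotic prophase. Of 6 libraries, 3 came from wild-type mice (Zar +/+) and 3 from Zar1 knockout mice (Zar -/-), all on the C57BL/6N background. The ZAR1 protein binds RNA in oocytes, and the study deals with a compartment at mitochondria in which oocytes store mRNA. The labels give no age and do not tie pools to animals, and a p-value here therefore reflects how much pools differ.

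A C2H2 zinc finger is a short loop in which a pair of cysteines and a pair of histidines hold a zinc ion, and arrays of such fingers read DNA or RNA sequence. Many mammalian C2H2 proteins also carry a KRAB domain, which binds the corepressor TRIM28 and through it recruits enzymes that methylate histones and DNA, often over transposable elements. Because a GV oocyte makes little new RNA, its mRNAs for such factors are a stock on which maturation and the first embryonic divisions draw.

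The coding sequences show the features that the family shares. Stretches were read 5′ to 3′ from GENCODE M21 transcripts, 1 annotated transcript per gene, and not from the libraries. The first set shows where the KRAB box lies in 3 mRNAs that fell in the knockout and in Zfp110, the 1 member with this pattern that passed as higher, a call that most alternatives lose. Capitals mark the codons that matched a pattern of 11 conserved KRAB residues.
Zfp964: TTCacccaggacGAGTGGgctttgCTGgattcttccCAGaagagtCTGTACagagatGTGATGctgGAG
Zfp472: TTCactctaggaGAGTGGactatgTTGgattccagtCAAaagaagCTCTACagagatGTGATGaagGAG
Zfp445: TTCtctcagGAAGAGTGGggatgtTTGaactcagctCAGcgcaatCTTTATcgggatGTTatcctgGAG
Zfp110: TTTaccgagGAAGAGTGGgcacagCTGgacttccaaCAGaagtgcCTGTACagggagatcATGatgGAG
Each of these 4 stretches matched 10 of the 11 residues. The second set shows 1 zinc finger and the linker behind it in the mRNA with the second largest fall and in the one with the second largest rise. Capitals mark the codons of the zinc-holding cysteines and histidines.
Zfp473: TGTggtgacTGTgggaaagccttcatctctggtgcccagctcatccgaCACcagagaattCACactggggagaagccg
Zfp296: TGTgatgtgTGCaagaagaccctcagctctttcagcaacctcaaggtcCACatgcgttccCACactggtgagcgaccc

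Of the 87 members, 86 had a protein-coding transcript, and Zfp939 had none. At least 1 C2H2 finger was found in all coding members except 4, namely Zfp957, Zfp451, Zfp703 and Zfp839. The count reached 29 fingers in Zfp236. The KRAB pattern was present in 39 members, where at least 8 of its 11 residues matched, and absent in 47, where at most 5 matched. A KRAB box that departs further from the pattern, or a finger with another spacing, would be missed. So would a box or finger encoded only in another transcript of the gene. Members with the pattern had a median of 12 fingers and those without it had 7.

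A library held 32126555 to 39148833 gene counts, and a member had at least 244 counts in every wild-type library and at least 75 in every knockout library. Zar1 mRNA stood at 389, 385 and 399 CPM in wild type and at 1.97, 2.53 and 6.07 CPM in the knockout, as labelled. Summed over 11 oocyte markers the level ran from 17694 to 18765 CPM in wild type and from 18522 to 20206 CPM in the knockout. Of these markers 7 rose and 1 fell in edgeR (median log2 fold change 0.45), and Ooep, Gdf9 and Bmp15 made up most of the sum. Nobox, the largest of these rises, went from 166, 146 and 160 CPM to 425, 415 and 385 CPM. Bmp15 went down, from 2943.5, 3142 and 3330.5 CPM to 2491.5, 2139.9 and 2710.3 CPM. Over 12 follicle somatic cell markers the sum ran from 107 to 119 CPM in wild type and from 120.3 to 129.7 CPM in the knockout, so those libraries did not overlap. Most of the latter sum came from Nr5a2 and Cyp19a1. Nr5a2 went from 51.9, 49.5 and 56.0 CPM to 83.8, 72.5 and 74.4 CPM, while Cyp19a1 overlapped between the genotypes. Kitl, at a much lower level, went the other way from Nr5a2, from 4.50, 3.73 and 3.98 CPM to 0.485, 0.553 and 1.32 CPM. Of the 9 follicle markers that could be tested, 1 rose and 1 fell in edgeR, with a median log2 fold change of -0.16. Of 7 blood and immune markers, the 4 haemoglobin genes were at 0, and the sum stayed between 0.453 and 2.24 CPM. The part of these shifts in the results was not tested. All levels are of poly(A) RNA and relative to the other mRNAs of a library. The length of poly(A) tails was not measured. Every library held 10 oocytes, and how much RNA an oocyte held was not measured.

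The abundant Zfp mRNAs took a smaller share of the gene counts from poly(A) RNA without Zar1. Their summed share of gene counts was 0.873%, 0.870% and 0.872% in wild type against 0.753%, 0.733% and 0.771% in the knockout. The wild-type libraries were nearly equal and all 3 knockout libraries lay below them. As a mean this was 0.872 ± 0.00129% against 0.752 ± 0.0190% (SD, n = 3). The sum went from 8717 to 7524 CPM. Zfp277, Zfp655 and Zfp664, 3 of the most abundant members, accounted for -798 CPM of the difference of -1193 CPM, and the other 84 members for -395 CPM.

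**Figure D1:**
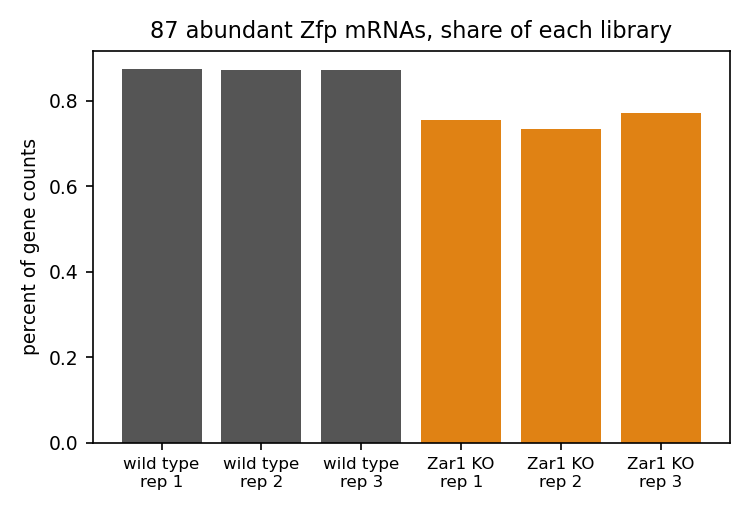
Share of all gene counts (percent, axis from 0) held by the 87 Zfp mRNAs, 1 bar per library. The 3 wild-type bars reach 0.870 to 0.873% and the 3 knockout bars 0.733 to 0.771%.

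More members fell than rose. In edgeR's quasi-likelihood test, adjusted by Benjamini-Hochberg over all 16473 genes tested, 38 members were lower and 15 higher in the knockout at an adjusted p of 0.05, and 34 did not pass. Among all genes tested, 18.5% were lower and 14.9% higher. Among the 6138 genes with the same wild-type level of at least 20 CPM, 25.7% were lower and 21.3% higher, compared with 43.7% and 17.2% of members. The median log2 fold change (knockout over wild type) was -0.17 over members and 0.01 both over all genes tested and over the genes at 20 CPM or more. It was negative in 58 members and positive in 29. Without overlap between the 3 libraries of either genotype, 45 members were lower and 17 higher, while 34.4% and 25.2% of all genes at that level were. Among members that passed, 9 were lower by more than 2-fold and none was higher by that much. All genes at 20 CPM or more leaned the same way, with 367 lower and 60 higher by more than 2-fold. Within each knockout library the median member lay at -0.18, -0.33 and -0.30 on the log2 scale relative to its wild-type mean.

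The wild-type levels that chose the members also enter the comparison. With members chosen instead by a knockout mean of at least 20 CPM (78 genes), 25 were lower, 20 higher and the median was -0.06. With a mean over all 6 libraries (82 genes), 31 were lower and 18 higher. Leaving out wild-type replicate 3 reduced the members' rises from 15 to 8, with 31 falls. The same fit also reduced rises over all genes, from 2448 of 16473 tested to 1541 of 17197. Falls over all genes went from 3051 to 2285. Correcting each library for transcript GC content and length gave 26 members lower and 16 higher, with a median of 0.0024. Over the 16430 genes in that fit, 2559 were lower and 2582 higher, with a median of 0.037. This correction was fitted to each library's deviation from the mean of all libraries. It therefore takes out any genotype difference that follows GC content or length, whatever its source.

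**Figure D2:**
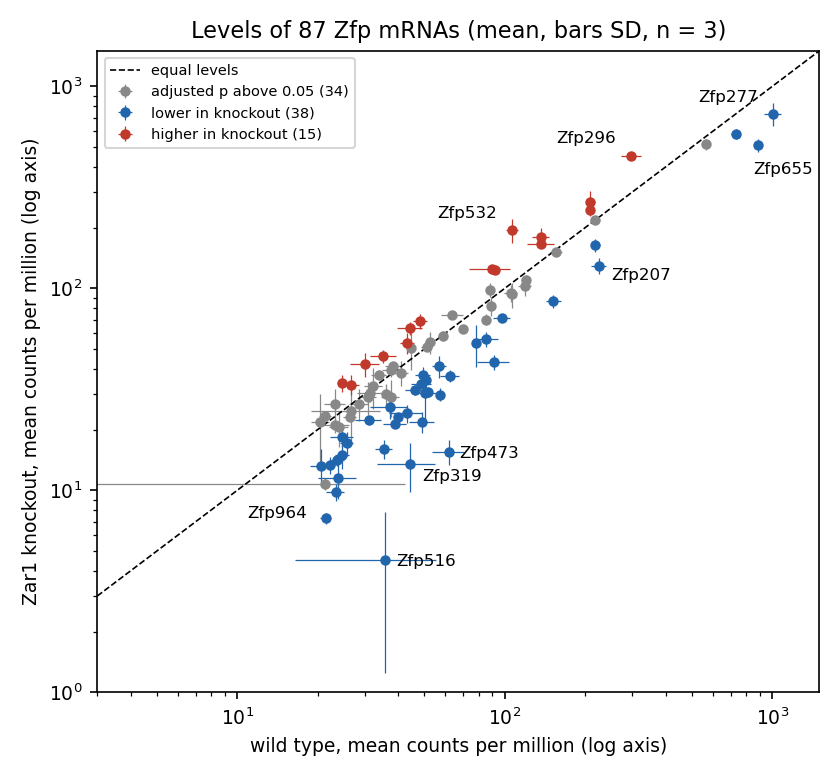
Mean level of each of the 87 Zfp mRNAs in wild type (x) and Zar1 knockout (y), in CPM on log axes, with bars for the SD over 3 libraries and a dashed line at equal levels. The 38 members that passed as lower lie below the line, Zfp516 farthest, and the 15 that passed as higher lie above it. The bar of Zfp715, at 21.3 CPM in wild type, runs past the left edge.

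The most abundant member was Zfp277. It had 939, 995 and 1083 CPM in wild type and 704, 648 and 833 CPM in the knockout, and all 3 knockout libraries were below the lowest wild-type library. The log2 fold change was -0.43 ± 0.10 (SE, edgeR adjusted p = 0.0122). Zfp655, also called VIK, stood at 872, 896 and 880 CPM in wild type and 506, 477 and 549 CPM in the knockout. The groups lay far apart, with a log2 fold change of -0.75 ± 0.07 (edgeR adjusted p = 0.000127). Zfp664 had 763, 710 and 715 CPM in wild type and 560, 565 and 618 CPM in the knockout, again without overlap, and fell by 0.29 ± 0.07 on the log2 scale (edgeR adjusted p = 0.0109). With the correction for GC content and length, Zfp277 and Zfp664 no longer passed, at -0.24 and -0.16 (edgeR adjusted p = 0.114 and 0.0934). Zfp277 also did not pass without wild-type replicate 3 or knockout replicate 1 (adjusted p = 0.0541 and 0.0522), nor Zfp664 without knockout replicate 1 (adjusted p = 0.0561). Per kilobase of annotated transcript, the 6 members with the highest CPM were also the 6 highest, in the order Zfp277 (460 CPM per kb), Zfp655 (215), Zfp296 (194), Zfp664 (178), Zfp207 (144) and Zfp706 (128).

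Among the RNA, ribosome, ubiquitin, SUMO and spindle genes, 6 of the 10 listed were members, of which 2 rose, 1 fell and 3 did not pass. Zfp207, which encodes the BUB3-binding spindle protein BuGZ, had 228, 237 and 208 CPM in wild type and 140, 133 and 117 CPM in the knockout. The genotypes did not overlap and the log2 fold change was -0.76 ± 0.09 (edgeR adjusted p = 0.000353). Zfp451, a SUMO ligase gene, had 205, 209 and 213 CPM in wild type and 249, 227 and 256 CPM in the knockout. All knockout libraries were above all wild-type libraries, by 0.26 ± 0.07 in log2 (edgeR adjusted p = 0.0228). This call was lost in 4 of the 6 fits that each left out 1 library, namely any wild-type library or knockout replicate 1, with adjusted p between 0.0557 and 0.0962. Zfp598 encodes the ubiquitin ligase that marks collided ribosomes. It had 155, 124 and 132 CPM in wild type and 168, 160 and 168 CPM in the knockout. The highest wild-type library lay just below the lowest knockout library, and the rise was 0.31 ± 0.09 in log2 (edgeR adjusted p = 0.0243). It did not pass with GC content and length corrected, at 0.07 (adjusted p = 0.575), with no scaling factors (adjusted p = 0.052), or without wild-type replicate 2 or 3 (adjusted p = 0.102 each) or knockout replicate 1 (adjusted p = 0.0586). Zfp638, linked to silencing of unintegrated retroviral DNA, Zfp106, an RNA-binding protein gene, and Zfp91, a ubiquitin ligase gene, did not pass. Their log2 fold changes were -0.15 ± 0.11, -0.11 ± 0.08 and 0.03 ± 0.09 (edgeR adjusted p = 0.315, 0.333 and 0.832).

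Transcription factors and cofactors on a list with 28 genes matched supplied 11 members, of which 4 rose, 3 fell and 4 did not pass. The largest rise of any member was in Zfp532. It had 112, 107 and 100.5 CPM in wild type and 192, 168 and 221 CPM in the knockout, with every knockout library well above wild type. Its log2 fold change was 0.90 ± 0.10 (edgeR adjusted p = 0.000331). Zfp592, whose protein joins ZFP532 and ZFP687 in a complex called Z3, had 218, 207 and 202 CPM in wild type and 276, 299 and 230 CPM in the knockout. It rose by 0.40 ± 0.10 in log2 without overlap (edgeR adjusted p = 0.0136), and did not pass without wild-type replicate 3 (adjusted p = 0.0628). Zfp703, a corepressor gene amplified in some breast cancers, had 26.3, 33.8 and 30.1 CPM in wild type and 38.2, 39.7 and 48.6 CPM in the knockout. The rise of 0.52 ± 0.14 in log2 (edgeR adjusted p = 0.0191) did not pass without wild-type replicate 1 or 3 (adjusted p = 0.0751 and 0.066) or with GC content and length corrected (0.23, adjusted p = 0.222).

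The largest fall of any member was in a gene of the same list. Zfp516, which encodes an activator of the brown fat gene Ucp1, had 58.2, 25.6 and 23.6 CPM in wild type and 3.39, 1.98 and 8.27 CPM in the knockout. Wild-type replicate 1 stood at more than 2 times the other wild-type libraries, and all knockout libraries were below all of these. The log2 fold change was -2.93 ± 0.52 (95% interval -4.12 to -1.75, edgeR adjusted p = 0.00296), and -2.42 without that library (adjusted p = 0.0116). Without knockout replicate 3, the highest of its group, it was -3.71 (adjusted p = 0.000954). Zfp652, whose protein binds the corepressor CBFA2T3, went from 21.6, 28.3 and 21.7 CPM to 11.1, 14.3 and 9.40 CPM. It fell by 1.01 ± 0.19 in log2 without overlap (edgeR adjusted p = 0.00378). Zfp143, an activator that binds many promoters, went from 59.8, 57.4 and 53.2 CPM to 44.4, 44.1 and 35.1 CPM. All knockout libraries were lower, by -0.43 ± 0.11 in log2 (edgeR adjusted p = 0.0165), but the call was lost without wild-type replicate 1 or 2 (adjusted p = 0.0593 and 0.0584).

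Zfp473 had the second largest fall. Its protein, ZFP100, binds the U7 small nuclear RNP that cuts the 3′ ends of histone mRNAs. Its level was 71.1, 54.5 and 60.1 CPM in wild type and 15.6, 17.8 and 13.4 CPM in the knockout. The lowest wild-type library lay far above the highest knockout library, and the fitted level was 3.87-fold lower (log2 fold change -1.95 ± 0.14, edgeR adjusted p = 3.22e-05). Zfp319, with 12 fingers, had 37.9, 56.6 and 37.9 CPM in wild type and 13.7, 9.70 and 17.1 CPM in the knockout. It was 3.19-fold lower without overlap (log2 fold change -1.67 ± 0.24, edgeR adjusted p = 0.000866).

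Members with the KRAB pattern came next. Zfp964, shown above with its KRAB box, had 21.8, 22.2 and 20.4 CPM in wild type and 7.07, 6.93 and 7.81 CPM in the knockout. The libraries of each genotype lay close together and the fall was 2.88-fold (log2 fold change -1.53 ± 0.13, edgeR adjusted p = 7.45e-05). Zfp472, the other of these with a printed KRAB box, went from 38.2, 33.6 and 34.2 CPM to 17.3, 16.7 and 14.0 CPM, a log2 fold change of -1.11 ± 0.12 without overlap (edgeR adjusted p = 0.000233). Zfp931 went from 25.3, 22.9 and 21.8 CPM to 10.4, 8.70 and 10.3 CPM, and Zfp345 from 48.4, 44.4 and 54.5 CPM to 24.0, 22.5 and 19.005 CPM. Both carry the pattern, and in both every knockout library was below every wild-type library, with log2 fold changes of -1.22 ± 0.13 and -1.13 ± 0.12 (edgeR adjusted p = 0.000249 and 0.000233). Zfp108, which lacks the pattern, completed the 8 largest falls. It went from 90.3, 104 and 79.5 CPM to 47.3, 41.4 and 40.9 CPM without overlap, a log2 fold change of -1.05 ± 0.12 (edgeR adjusted p = 0.000287). The counts of Zfp931, Zfp345 and Zfp108 are uncertain, since 52.6%, 30.5% and 11.9% of their transcripts' 50-base windows also occur in another gene. Such shared windows made up more than 5% of the transcript in 12 members and at most 1% in 67. Of those 67, 30 fell and 10 rose. Of the 12, 4 fell and 4 rose, with a median log2 fold change of -0.08.

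Among KRAB repressors with described targets, Zfp445 was the 1 member. Its protein protects imprinted methylation in the early embryo together with ZFP57. The level was 23.1, 22.3 and 21.2 CPM in wild type and 14.2, 13.9 and 11.8 CPM in the knockout. The libraries of each genotype were tight and apart, and the log2 fold change was -0.70 ± 0.13 (edgeR adjusted p = 0.00298).

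Among germ cell, stem cell and early embryo genes, 1 of 3 members rose. Zfp296, a gene active in pluripotent cells whose product aids reprogramming, had 271, 321 and 301 CPM in wild type and 439, 445 and 474 CPM in the knockout. All knockout libraries exceeded all wild-type libraries, with a log2 fold change of 0.64 ± 0.09 (edgeR adjusted p = 0.000704). Zfp706, a gene that embryonic stem cells need to leave self-renewal, had 583, 552 and 555 CPM in wild type and 533, 538 and 478 CPM in the knockout. Although these libraries did not overlap, the log2 fold change of -0.09 ± 0.07 did not pass (edgeR adjusted p = 0.356). Zfp541, a meiotic gene of spermatocytes, overlapped between the genotypes at 30.1 to 35.0 CPM and 24.6 to 39.0 CPM, with 0.06 ± 0.16 in log2 (edgeR adjusted p = 0.802).

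The other large rises were smaller than those of Zfp532 and Zfp296. Zfp821 went from 39.4, 45.1 and 48.5 CPM to 58.9, 62.9 and 68.8 CPM, by 0.56 ± 0.11 in log2 (edgeR adjusted p = 0.00536). Zfp574, with 18 fingers, went from 92.7, 94.8 and 89.1 CPM to 118, 123 and 130.2 CPM, by 0.46 ± 0.08 in log2 (edgeR adjusted p = 0.0023). Neither overlapped between genotypes. Zfp653 went from 44.8, 49.8 and 49.8 CPM to 63.4, 68.7 and 74.5 CPM, and Zfp939 from 72.1, 93.6 and 102 CPM to 123, 128 and 125 CPM. Zfp513, a gene known from retinal disease, went from 24.98, 25.71 and 23.4 CPM to 36.6, 35.2 and 30.2 CPM. In all 3 the knockout libraries were the higher ones, and Zfp653, Zfp939 and Zfp513 rose by 0.55, 0.52 and 0.50 in log2 (edgeR adjusted p = 0.00318, 0.0126 and 0.00895). Zfp653 and Zfp513 did not pass with GC content and length corrected, at 0.19 and 0.15 (adjusted p = 0.179 and 0.363). Of the transcript windows of Zfp653 and Zfp939, 20.5% and 11.9% also occur in another gene.

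**Figure D3:**
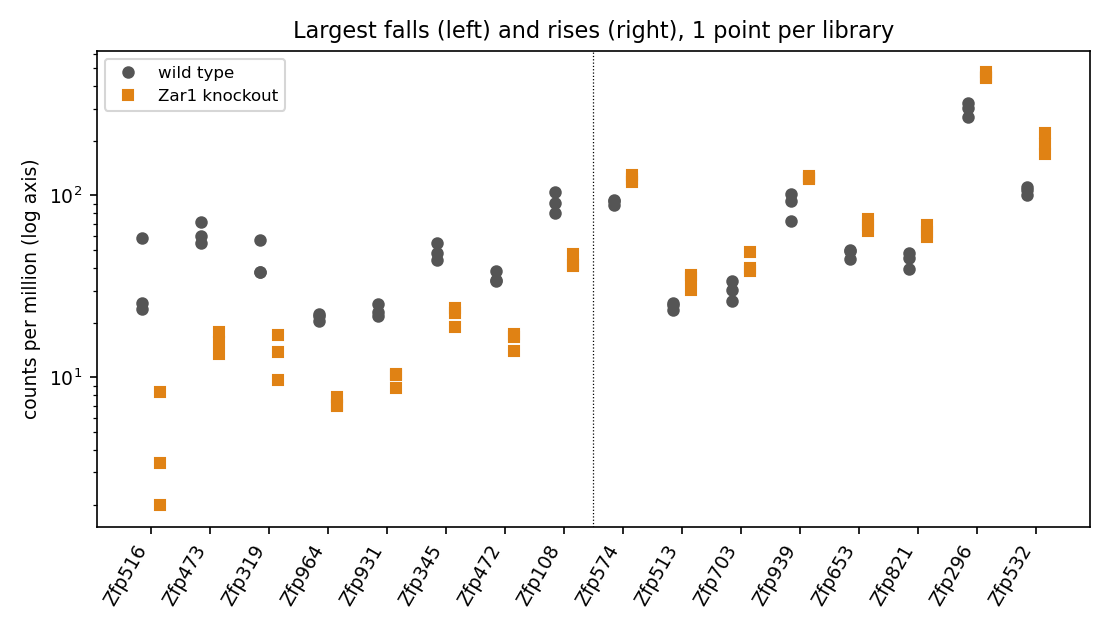
CPM (log axis) in each library of the 8 members with the largest falls (left of the dotted line) and the 8 with the largest rises (right) among those that passed, wild type as circles and Zar1 knockout as squares. In none of the 16 do the genotypes overlap, and wild-type replicate 1 of Zfp516 stands apart at 58.2 CPM.

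The members nearest to no change were Zfp131, which encodes a BTB zinc finger protein, Zfp639 and Zfp91. Zfp131 had 162, 147 and 157 CPM in wild type and 147, 149 and 155 CPM in the knockout. These libraries overlapped, and the log2 fold change was -0.01 with a 95% interval of -0.17 to 0.15. The interval was -0.30 to 0.27 for Zfp639 and -0.17 to 0.22 for Zfp91. At the threshold of 20 CPM, Zfp646 and Zfp426 were just inside with wild-type means of 20.5 CPM each, and Zfp709 and Zfp944 just outside with 19.8 and 19.7 CPM. Zfp715, singled out after its values were seen, was a member through wild-type replicate 1 alone, with 45.5 CPM there and 10.8 and 7.60 CPM in the other wild-type libraries. It stood at 11.2, 11.2 and 9.99 CPM in the knockout.

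Falls were more frequent among members with the KRAB pattern. Of these 39 members, 22 fell, 16 did not pass and 1 rose, with a median log2 fold change of -0.42. Of the 47 coding members without it, 16 fell, 18 did not pass and 13 rose, with a median of -0.05. The falls with the pattern ran from -1.53 in Zfp964 to -0.38 in Zfp68. Zfp68 was the most abundant member with the pattern, at 218 ± 8.63 CPM in wild type and 164 ± 12.1 CPM in the knockout (SD, n = 3), followed by Zfp334, at 152 ± 9.88 and 86.5 ± 6.13 CPM. Both fell (edgeR adjusted p = 0.00468 and 0.000274). The falls without it ran from -2.93 in Zfp516 to -0.29 in Zfp664, and all 15 rises from 0.26 in Zfp451 to 0.90 in Zfp532. The 1 riser with the pattern was Zfp110, at 0.36 ± 0.12 in log2 (edgeR adjusted p = 0.0451). It did not pass in 9 of 15 alternatives, with adjusted p between 0.0506 and 0.169, among them the replicate block, limma-voom and the fits without any 1 wild-type library or without knockout replicate 1 or 3. Zfp68 did not pass with GC content and length corrected (edgeR adjusted p = 0.555). This split was made after levels were seen, and the difference between the classes was not tested. Zfp genes below 20 CPM showed a like order without having been chosen as members: of 110 tested with the pattern 31 fell and 5 rose (median -0.46), and of 85 without it 17 fell and 9 rose (median -0.08). The 11 genes at 20 CPM or more that have the pattern but are no members did not show it, with 2 lower (18.2%), none higher and a median of -0.10. Over all 200 Zfp genes below the threshold that could be tested, 48 fell (24%) and 14 rose (7%), with a median of -0.30. By class, 28.2% fell and 4.5% rose with the pattern, and 20% and 10.6% without it. Among all genes tested, at any level, 18.5% fell and 14.9% rose. A share over all genes below the threshold was not counted. Median transcript GC content of these Zfp genes was 40.6% with the pattern and 51.1% without it.

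Base composition moved with the same split. Median transcript GC content was 42.2% in members with the KRAB pattern and 49.0% in those without it. It was 42.9% in the members that fell, 44.4% in those that did not pass and 57.1% in those that rose. Below 42% GC, 17 of 29 members fell and 2 rose. Between 42% and 50%, 15 of 34 fell and 3 rose, and at 50% and above 6 of 24 fell and 10 rose. All genes at 20 CPM or more showed the same order, with 298 of 672, 889 of 2848 and 388 of 2613 lower and 56, 432 and 819 higher. Across genes, GC content and log2 fold change had a Spearman rho of 0.36 over the 87 members and 0.34 over 6133 genes at 20 CPM or more. All these points share the same 6 libraries.

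Both features were then counted together. Below 42% GC, 13 of 18 members with the pattern fell and none rose, while 4 of 11 without it fell and 2 rose. From 42% to 50% the classes were alike in counts, with 8 of 17 and 7 of 16 lower and 1 higher in each. At 50% and above, 1 of 4 with the pattern fell and none rose, and 5 of 20 without it fell and 10 rose. The class limits were set after the values were seen. With GC content and length corrected, 14 members with the pattern fell and 6 rose, against 12 and 9 of those without it. That correction also takes out any genotype difference that follows GC content or length. The part of base composition and of its measurement in these falls was not tested further.

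**Figure D4:**
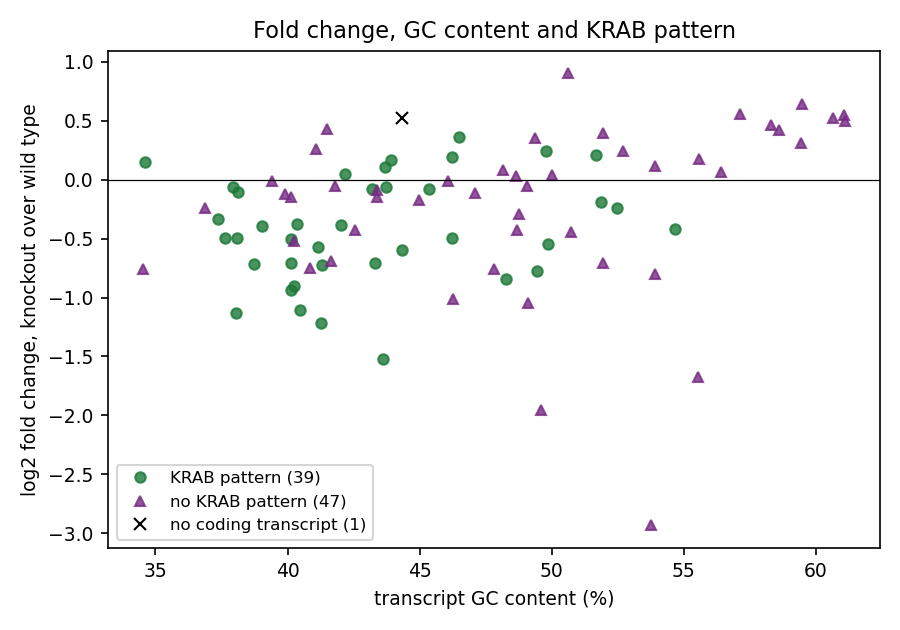
Transcript GC content (percent) and log2 fold change, knockout over wild type, of each of the 87 members: circles with the KRAB pattern (39), triangles without it (47) and a cross for Zfp939. Members above 57% GC are all triangles above 0, and most circles lie below 50% GC and below 0.

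The ends of the mRNAs were searched for the cytoplasmic polyadenylation element (CPE), the site through which CPEB proteins hold maternal mRNAs and later have them translated. The motif was TTTTAT or TTTTAAT on the sense strand in the last 100 bases of the transcript, and the search was made after levels were seen. It was found in 13 of the 80 members whose annotated end was long enough to be searched (16.3%), compared with 23.0% of 5646 genes at 20 CPM or more and 19.7% of all 12172 searchable genes tested. Of the 13, 7 fell, 4 rose and 2 did not pass. Of the 67 without it, 28 fell, 9 rose and 30 did not pass. Of all genes at 20 CPM or more, 389 of 1299 with a CPE fell and 235 rose (29.9% and 18.1%), and 1085 of 4347 without it fell and 947 rose (24.96% and 21.8%). Windows of 30 bases, with the motif in capitals, are shown for the CPE holders with the largest falls (Zfp473, Zfp964) and rises (Zfp821, Zfp592).
Zfp473: atataaTTTTATgataaagacaagaaataa
Zfp964: taaagactttcatttattgcTTTTATtgta
Zfp821: ggcaaataaattaaTTTTATctttactggc
Zfp592: atctatTTTTAATacaaacagtagcattct
The motif started 37, 10, 16 and 25 bases before the annotated end in these 4. It occurred both in members that fell and in members that rose.

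Zfp genes often lie in clusters, and in some of these neighbours moved in opposite directions. In RefSeq gene order 22 members formed 9 groups with at most 2 protein-coding genes between neighbours. In the largest, Zfp235 rose (log2 fold change 0.35), Zfp108 fell (-1.05), and Zfp111, Zfp109 and Zfp61 did not pass (-0.15, -0.05 and 0.25). Zfp58 rose (0.43) beside Zfp748, which fell (-0.71). Of the windows in the Zfp58 transcript, 50.2% also occur in another gene. Both neighbours fell in the pair Zfp560 (-0.91) and Zfp426 (-0.60). In a group of 3, Zfp236 (-0.44) and Zfp516 (-2.93) fell and Zfp407 (0.08) did not pass. Of these calls, those of Zfp235, Zfp236 and Zfp426 were lost in 5, 4 and 4 of 15 alternatives, of which 4, 3 and 3 left out 1 library, and that of Zfp58 without wild-type replicate 1 (edgeR adjusted p = 0.0558).

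Of 34 listed genes for the corepressor and silencing partners of KRAB proteins, 33 were matched and tested. Among these 7 rose (21.2%), 8 fell (24.2%) and 18 did not pass, with a median log2 fold change of 0.09. These shares are near the 21.3% and 25.7% of all genes at 20 CPM or more. The partners were not chosen by level, however, and some lie below 20 CPM in wild type. Among all genes tested, 14.9% were higher and 18.5% lower. The counts are not read as a result about the partners. Trim28, the KRAB-binding scaffold, had 156, 146 and 139 CPM in wild type and 156, 161 and 141 CPM in the knockout, overlapping, with 0.09 ± 0.08 in log2 (edgeR adjusted p = 0.42). The histone methylase gene Setdb1 did not pass at -0.12 ± 0.08 (edgeR adjusted p = 0.252). Atf7ip, whose product stabilises SETDB1, fell by 0.82 ± 0.07 in log2, and Mphosph8, a silencing partner, by 0.98 ± 0.08 (edgeR adjusted p = 8.85e-05 and 5.58e-05). Pphln1, another partner on the list, rose by 0.31 ± 0.07 in log2 (edgeR adjusted p = 0.0115). Morc3, a silencing ATPase gene, fell by 1.25 ± 0.13 (edgeR adjusted p = 0.000189). The DNA methylase genes Dnmt1 and Dnmt3b fell by 0.35 ± 0.06 and 0.53 ± 0.10 (edgeR adjusted p = 0.00289 and 0.0037). Mbd3, also on the list, rose by 0.97 ± 0.15 (edgeR adjusted p = 0.0013).

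**Figure D5:**
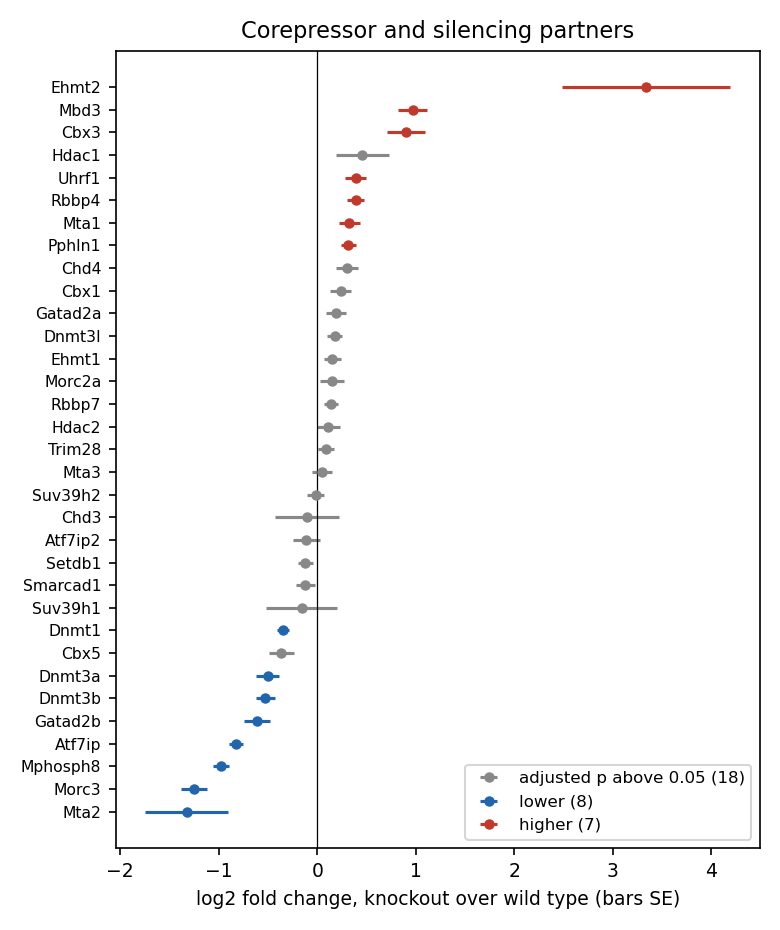
Log2 fold change, knockout over wild type, of 33 KRAB corepressor and silencing partner genes, with bars for the SE (edgeR, 3 libraries per genotype) and colours for those that passed as higher (7), lower (8) or not (18). Trim28 and Setdb1 lie near 0, and the long bar at the top is Ehmt2, which was at 1.28, 18.7 and 5.18 CPM in the knockout libraries and whose call was lost in 4 of 15 alternatives.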

How the data were processed

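Poly(A) RNA of 6 pools of 10 GV oocytes was measured, 3 wild type and 3 Zar1 knockout, grouped by the labels. The authors deposited raw counts per gene without normalization. HTSeq 0.13.5, STAR 2.7.8a, cutadapt 2.8, bcl2fastq 2.20.0.422 and the build mm39 are named in the submitters' processing notes. Neither annotation release nor strand setting is given in the sources used here, so overlapping and antisense genes are uncertain. Reads with more than 1 alignment were 14.6 ± 0.265% of reads in wild type and 14.3 ± 0.610% in the knockout (SD, n = 3).

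Of 53700 gene identifiers 52093 had a symbol in the name table, and those without one held at most 0.256% of a library's counts. Levels are CPM over the sum of gene counts, without the 5 summary lines. Tests were run in R 4.3.3 with edgeR 4.0.16 (filterByExpr, TMM factors, glmQLFit, glmQLFTest, genotype as the 1 term, two-sided, Benjamini-Hochberg). SEs are the log2 fold change over the root of F. The edgeR steps were also run on simulated counts, with the same spread set for every gene and far fewer changed genes than were called here. That run does not test the calls made in these data.

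Transcript features came from GENCODE M21, which is built on GRCm38, so no coordinates are printed. Gene order came from RefSeq. Same-numbered libraries deviated with correlations of -0.042 to -0.009 and were not treated as pairs. Libraries of 1 genotype differed beyond sampling noise (chi-square over degrees of freedom of 12.8 to 39.9).

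The members and lists were chosen with earlier results of these data known. Named genes are the 6 most abundant members, the 8 largest falls and rises that passed without overlap, the 3 nearest to no change, 2 on each side of the threshold, the role lists (up to 6 transcription factors past the threshold), up to 6 partners past the threshold with Trim28 and Setdb1, and Zar1. Genes named beyond this, such as Zfp68, Zfp334, Zfp110, Zfp715, Ehmt2, Pphln1, the genes in which no finger was found and the neighbours, were chosen after their values were seen. The alternatives tried were scaling by RLE, by upper quartile or not at all, low counts filtered in 2 other ways, the replicate block, a test against a 1.5-fold change, GC content and length offsets (99.7% of tested genes), each library left out, DESeq2 1.42.0, limma-voom (limma 3.58.1), an adjusted p of 0.01 and 4 other rules for members.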

Additional observations from a re-analysis of the deposited data

How the results depend on the processing

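The counts rest on the size of change asked for and on how members were chosen. Against a 1.5-fold change in edgeR, 1 member was higher and 9 lower, of which 0 higher and 5 lower had the KRAB pattern and 1 higher and 4 lower lacked it. Over all 16473 genes in that test, 417 were higher and 1067 lower. An adjusted p of 0.01 left 6 members higher and 27 lower. A knockout mean of at least 20 CPM gave 25 lower with a median log2 fold change of -0.0621, a wild-type mean of at least 50 CPM gave 8 higher and 17 lower among 40 genes, and one of at least 10 CPM gave 58 lower among 133. GC content and length offsets moved the median to 0.0024 (0.037 over all genes in that fit) and KRAB members to 6 higher and 14 lower. Leaving out 1 library in turn gave 8 to 15 members higher, 31 to 38 lower and medians of -0.20 to -0.16, with 0 to 1 KRAB members and 7 to 13 others higher. Over all genes, these fits gave 1541 to 2509 higher and 2285 to 3125 lower. The 1 KRAB riser was at 0 with no scaling factors, no filter, limma-voom and the replicate block. With the replicate block 13 members were higher and 37 lower, and the calls of Zfp110, Zfp235 and Ehmt2 were lost, at log2 fold changes of 0.3546, 0.3484 and 2.6168 (adjusted p = 0.0917, 0.0693 and 0.0624). The replicate numbers did not pair the libraries.

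Among 780 refits of 52 named genes 708 kept direction and call, 50 lost the call and 22 changed sign, all of the last in genes that had not passed. Zfp131 went to 0.0081 (RLE, DESeq2), 0.0419 (upper quartile), 0.2637 (GC and length, adjusted p = 0.0216) and between -0.0417 and 0.0274 with a library left out. Zfp639 went to 0.0006, 0.0007, 0.036 and 0.0946 under RLE, DESeq2, upper quartile and GC with length, and between -0.0973 and 0.0798 with a library left out. Zfp91 went to -0.0089 without scaling factors and to between -0.0282 and 0.0781 with a library left out, and Zfp541 to between -0.0625 and 0.2261 with a library left out. With GC and length offsets Zfp706, Zfp638, Zfp106, Trim28 and Setdb1 went to 0.1653, 0.2037, 0.1058, -0.1535 and 0.0093. The causes were not tested. Upper-quartile scaling raised the share of rises among all calls from 44.5% to 50.3%, with 16 members higher and 37 lower. Every member had at least 75 counts in every library.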
